A study of Mus musculus with 12 samples.

Results

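Embryonic fibroblasts that had been transduced with Bmi1 and grown as spheres were compared with mouse embryonic fibroblasts (MEF). The comparison rests on 2 of the 12 arrays of the series, 1 array of each sample, chosen by the sample titles. Both samples were total RNA from mouse cells, extracted with Trizol, labelled with Cy3 and hybridised once to a one-colour Agilent array of 60-base probes. The spheres are called Bmi1-transduced cells like neural stem cells (NSC) in their source label, their cell type label reads embryo fibroblasts, and their description calls them iPS. The title was used, and no label of the sphere sample names Oct4. The labels give neither strain, age nor sex for either sample, nor the vector that carried Bmi1, the time since transduction or the culture medium. The other 10 arrays, of which 1 is of ES cells (embryonic stem cells, taken from 129/Ola mice) and 9 are of induced pluripotent stem (iPS) lines, are used only to show where a gene's level lies elsewhere in the series and how far like samples lie apart. By their labels the iPS lines were made with Oct4 together with Bmi1, Shh, oxysterol or purmorphamine. Those of 1 oxysterol group came from tail-tip fibroblasts. Lines made with Bmi1 are thus among those the spheres are set beside.

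Bmi1 (Pcgf4) is a subunit of Polycomb repressive complex 1, which binds and compacts chromatin and adds ubiquitin to histone H2A. It works beside Polycomb repressive complex 2, whose enzyme Ezh2 methylates histone H3 on lysine 27. The best known target of Bmi1 is the Ink4-Arf locus, which holds Cdkn2a and Cdkn2b and encodes proteins that stop the cell cycle through the Rb and p53 pathways. Cultured fibroblasts switch this locus on as they age in culture, and Bmi1 delays that arrest. In the brain Bmi1 is needed for neural stem cells to renew themselves, and such cells grow in culture as floating spheres.

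A level is the log2 of a gene's processed signal minus the log2 of its array's 75th percentile, so that 0 is the 75th percentile, and each gene was read from its brightest probe over all arrays. Of 25382 genes with a probe above background somewhere in the series, 23393 were well above background on the array where they were higher and were compared. On both arrays 19189 genes were above background, 3080 only on the sphere array and 1124 only on the MEF array. Where the lower array was dim, its signal was raised to the lowest signal that array could tell from background (-6.94 in spheres and -6.85 in MEF), and the fold is given as a lower limit. A fold is also a lower limit where the brighter array was saturated. By these rules 7363 genes (31.5% of those compared) were at least 2-fold higher in spheres and 4328 (18.5%) at least 2-fold lower, 50% in all. The median difference over all genes compared was 0.34 log2 units higher in spheres. That shift was 0.13 after quantile normalization, and 0.12 when the arrays were centred on 20 control genes. Each list median given here is to be read against 0.34, and each count of higher or lower members against shares of 31.5% and 18.5%. A pair of values in parentheses gives the level in MEF first and the level in spheres second.

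With 1 array a side there was no test, and the spread between cultures has to be taken from elsewhere in the series. Spots of the same probe on 1 array had a median SD of 0.10 log2 units in MEF and 0.11 in spheres, which is the error of printing and scanning alone. Pairs of iPS lines made the same way, of which there were 4, had between 28.5% and 38.3% of their genes at least 2-fold apart, so a 2-fold difference is common between like samples. Spheres and MEF lay further apart than every such pair at each threshold, with 50% of genes at 2-fold. At 4-fold the share was 22.6%, against 8.05% to 14.0% between sister lines. Relative to sister lines the excess was greatest among the largest differences. Over all genes 13.1% were at least 4-fold higher and 9.47% at least 4-fold lower, and at 8-fold the shares were 5.63% and 5.47%. At 16-fold they were 2.36% and 3.33%. At least 16-fold apart were 5.69% of genes between spheres and MEF, against 0.98% to 2.37% between sister lines, and at least 64-fold apart 1.72% against 0.11% to 0.39%. The largest differences lay mostly on the lower side, with 300 genes at least 64-fold lower in spheres (1.28%) and 102 at least 64-fold higher (0.436%). When the spread of the iPS lines was lent to the 2 single arrays in a limma fit, 500 genes were higher and 485 lower at an adjusted p under 0.05, and the median 95% interval of a gene reached 4.55-fold either way. MEF and spheres were hybridised on different slides. Slide and sample can be told apart only through the iPS lines, and list medians with a slide term are given beside each list whose median it moved by more than sister lines differed. The sphere array had 80.0% of its gene spots well above background and the MEF array 72.8%.

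**Figure D1:**
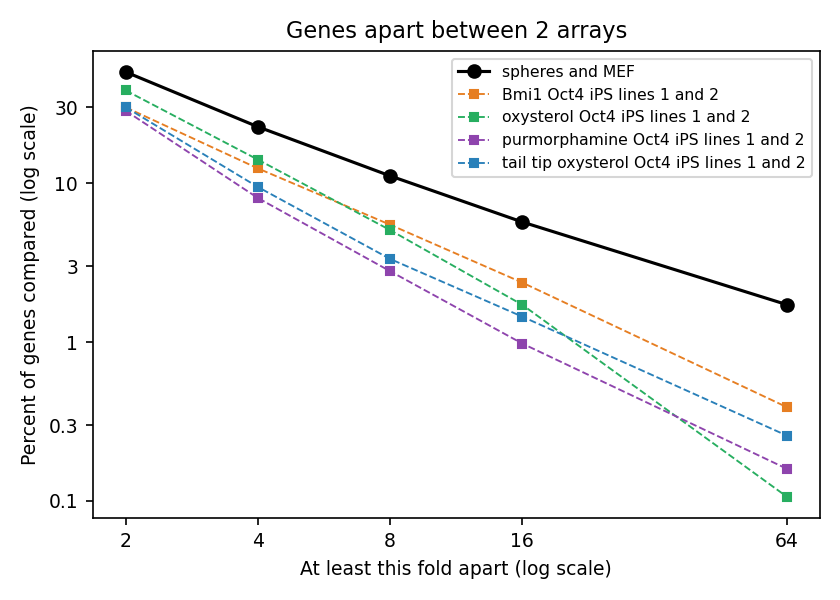
Percent of the genes compared (vertical axis, log scale) that were at least 2, 4, 8, 16 or 64-fold apart (horizontal axis, log scale) between spheres and MEF and between the 2 lines of each of 4 iPS groups. The black line of spheres and MEF runs above all 4 pairs of sister lines, and at 64-fold it stands at 1.72% against 0.39% for the highest pair.

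**Figure D2:**
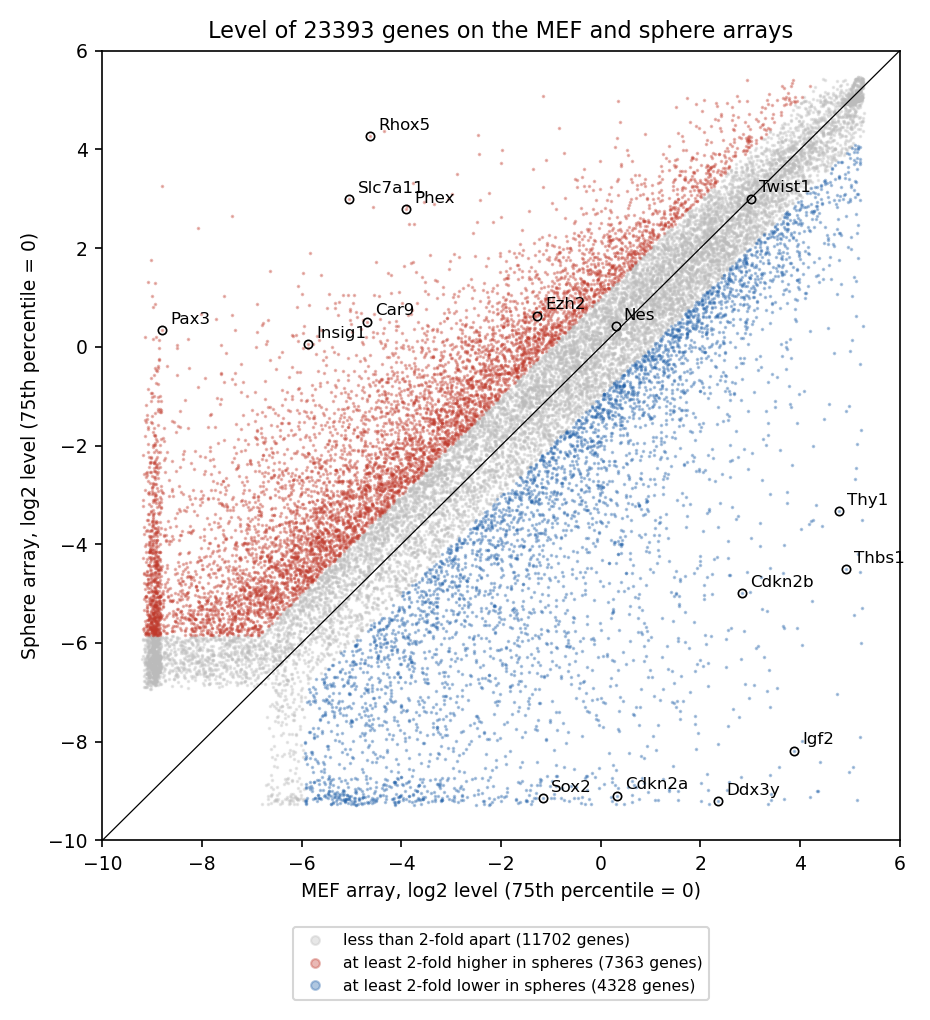
Each point is 1 of the 23393 genes compared, at its log2 level on the MEF array (horizontal axis) and on the sphere array (vertical axis), with the 75th percentile of each array at 0. Red points were at least 2-fold higher in spheres (7363 genes), blue points at least 2-fold lower (4328 genes) and grey points closer, and circles mark named genes. The columns of points at the left and bottom edges are genes not well above background on 1 array.

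Bmi1, the gene named in the sphere label, was read by 2 probes that did not behave alike. The dimmer one lies at chr2:18748838-18748897 of the mm7 build in the coding part of Bmi1, and its 60 bases are shown because this probe, and not the other, read more Bmi1 RNA in spheres.

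Bmi1 coding probe: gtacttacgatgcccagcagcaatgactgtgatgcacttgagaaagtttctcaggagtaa

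This probe read -6.26 in MEF and -1.27 in spheres, 31.7-fold higher. Its level was -5.10 in ES cells and between -6.46 and -3.54 in the 9 iPS lines, which include those made with Bmi1. The sphere array thus stood above all other arrays. The brighter probe, at chr2:18751519-18751578, further along the same chromosome, read 0.37 in MEF and -0.23 in spheres, 1.52-fold lower. It was between -3.19 and -1.64 in the iPS lines, below both MEF and spheres. Both probes thus saw the same 2 RNA samples and differed in direction, and only the coding probe was higher in spheres. Whether its difference came from the transduced copy was not tested. Which part of the gene the brighter probe matches is not given in the sources used here.

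Most Polycomb genes were within 2-fold. Of 30 subunit genes, 11 were at least 2-fold higher in spheres (36.7% against 31.5% of all genes), 1 lower and 18 closer, with a median of 0.45. Sister iPS lines differed by 0.40 in the same median (root mean square over 4 pairs), so the list as a whole lay near the general shift. Within Polycomb repressive complex 2, Ezh2, the methyltransferase, was at -1.28 in MEF and 0.63 in spheres, 3.76-fold higher, and the sphere value lay just below the iPS range of 0.88 to 1.52. Its partner Eed, which binds the methylated histone, was at -0.37 and 1.33, 3.26-fold higher. Suz12, the third core subunit, was at 1.33 in MEF and 1.98 in spheres, under the threshold. The accessory subunit Phf1 had the largest difference, from -6.29 in MEF to -0.92 in spheres, 41.3-fold higher. In complex 1, Ring1, which carries the ubiquitin ligase activity with Rnf2, was at -3.15 in MEF and -0.47 in spheres, 6.4-fold higher. Rnf2 itself was nearly level (-1.43 and -1.04). Cbx7, the chromodomain subunit that represses Ink4 genes in fibroblasts, was at -5.44 in MEF and -3.61 in spheres, 3.54-fold higher. Pcgf1, a paralogue of Bmi1, was 3.15-fold lower (-1.0 in MEF and -2.65 in spheres). Pcgf2, the closest paralogue of Bmi1, was 6.28-fold higher (-6.51 and -3.86), but its difference was -0.061 with a slide term.

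The Ink4-Arf genes were far lower in spheres. Cdkn2a, which encodes both p16 Ink4a and p19 Arf, was at 0.33 in MEF and not well above background in spheres (-9.09), at least 154-fold lower. Cdkn2b, which encodes the neighbouring inhibitor p15, was at 2.83 in MEF and -4.99 in spheres, 225-fold lower. The iPS lines held both genes above the sphere level, between -6.24 and -0.44 for Cdkn2a and between -3.2 and 1.34 for Cdkn2b, and sister lines differed by up to 3.71 and 4.25 log2 units in them. Each gene has 1 probe, and whether the Cdkn2a probe sees both transcripts was not tested. The nearest gene compared on 1 side, Mtap, a methionine salvage enzyme with its probe 94.4 kb away, was not lower, at -0.19 in MEF and 0.50 in spheres, 1.62-fold higher. On the other side Dmrta1, 408 kb away, was at -8.94 in MEF, not well above background, and at -3.02 in spheres, at least 14.2-fold higher. Of the other Ink4 genes, which lie elsewhere, Cdkn2c was 2.19-fold higher (-0.32 in MEF, 0.81 in spheres) and Cdkn2d 2.22-fold higher (1.52 and 2.67). The start regions of Cdkn2a and Cdkn2b are printed because these are the genes through which Bmi1 is best known, with CpG dinucleotides in capitals. They run 5' to 3' on the gene's strand (minus) from 250 bases before the RefSeq start to 50 after, in build GRCm38.p6.

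Cdkn2a, chr4:89294570-89294869: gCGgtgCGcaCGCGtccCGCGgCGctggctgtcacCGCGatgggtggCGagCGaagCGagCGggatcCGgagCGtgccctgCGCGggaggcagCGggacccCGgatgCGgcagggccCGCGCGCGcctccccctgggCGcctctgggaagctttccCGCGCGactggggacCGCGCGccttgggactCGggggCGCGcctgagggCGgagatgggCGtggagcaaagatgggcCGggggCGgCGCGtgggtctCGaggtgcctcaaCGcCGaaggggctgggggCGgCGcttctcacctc

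Cdkn2b, chr4:89310983-89311282: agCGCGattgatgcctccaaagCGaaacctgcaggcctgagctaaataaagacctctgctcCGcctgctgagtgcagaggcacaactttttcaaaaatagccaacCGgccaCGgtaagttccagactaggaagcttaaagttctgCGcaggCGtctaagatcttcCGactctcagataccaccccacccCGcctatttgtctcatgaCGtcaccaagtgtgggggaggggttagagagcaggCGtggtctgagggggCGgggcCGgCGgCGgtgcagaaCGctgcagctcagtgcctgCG

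The Cdkn2a region holds 45 CpG dinucleotides, 1.04 times the number its C and G content predicts, and the Cdkn2b region 18, 0.72 times. Over the 13913 compared genes with such a region, the median was 17 CpG and a ratio of 0.68.

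Of the p53 pathway, more genes were lower than higher, and most were within 2-fold. Of 21 genes, p53 itself and its targets, 7 were at least 2-fold lower in spheres (33.3% against 18.5% of all genes) and 1 higher (4.76% against 31.5%), with a median of -0.50 against 0.17 between sister lines. Over all 28 genes of the Ink4, Arf and p53 list the median was -0.41, and -0.78 with a slide term. A pair of apoptosis genes stood far from the rest. Pmaip1 (Noxa), a trigger of mitochondrial apoptosis, was at 4.74 in MEF and not well above background in spheres (-7.04), at least 3277-fold lower. Perp, a membrane protein of desmosomes and apoptosis, was saturated in MEF (5.25) and at -5.3 in spheres, at least 1506-fold lower. Both were high in all iPS lines, where the lowest levels were 3.79 and 1.98. Trp53, which encodes p53, was at 3.66 in MEF and 3.16 in spheres. Cdkn1a (p21), its main cell cycle target, was at 3.44 and 2.48, a difference of -0.96 at the edge of the threshold, and Mdm2, which degrades p53, was at 4.11 and 4.85. Btg2, an antiproliferative target, was 6.56-fold lower (2.31 in MEF, -0.40 in spheres). Bbc3 (Puma) was saturated on both arrays and gives no fold. The imprinted kinase inhibitor Cdkn1c (p57) was at 3.16 in MEF and -0.47 in spheres, 12.4-fold lower.

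Most cell cycle genes were within 2-fold. Of 59 cell cycle genes, 16 were at least 2-fold higher in spheres (27.1%, under the 31.5% of all genes) and 6 lower (10.2% against 18.5%), with a median of 0.61. Of the 17 G1 genes 5 were higher and 5 lower, with a median of -0.072. Of the 20 replication genes 4 were higher (20%, under the share of all genes) and 0 lower. Prim1, the primase subunit that starts DNA chains, was at -0.33 in MEF and 1.88 in spheres, 4.62-fold higher. Mki67, the proliferation marker Ki-67, was at 0.97 and 2.82, 3.61-fold higher. Plk1, a mitotic kinase, was at 1.07 and 2.91, 3.6-fold higher. Other S and M phase genes were within 2-fold, such as Pcna (1.79 and 2.65), Top2a (2.76 and 2.91) and Ccna2 (2.39 and 2.42). Among the G1 genes, Myc was 3.99-fold higher (1.93 in MEF, 3.93 in spheres), Ccnd2 2.62-fold lower (4.12 and 2.73), and Mycl 52.9-fold lower (-0.49 and -6.21). Of 16 DNA repair genes, 8 were higher (50% against 31.5% of all genes) and 0 lower (against 18.5%), with a median of 1.02 against 0.44 between sister lines. Brca1, which acts in recombination repair, was at -4.18 in MEF and -1.35 in spheres, 7.1-fold higher, and Fanca, of the Fanconi core complex, was 7.49-fold higher (-4.49 and -1.59). In the apoptosis list Dapk1, a death-associated kinase, had the largest difference (3.67 in MEF and -5.65 in spheres), but another of its probes differed by 1.53 the opposite way.

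The name given to the spheres in the source label was checked against markers of neural stem cells, and the markers did not bear it out as a set. Of 36 markers, 34 were compared, 8 were at least 2-fold higher in spheres (23.5%) and 11 at least 2-fold lower (32.4%), against 31.5% and 18.5% of all genes. On the sphere array 26 of the 36 were above background, and on the MEF array 31, with summed levels of 120.3 and 117 (the 75th percentile as 1). With both arrays above background 6 of 23 were higher and 3 lower, and with a slide term 13 of 34 were higher and 12 lower. Sox2, the transcription factor that defines neural stem cells, was at -1.16 in MEF and not well above background in spheres (-9.14), at least 55-fold lower. Its ES level was 3.71 and its iPS range 3.32 to 4.36, so the probe reads the gene where it is known to be on. Nes, which encodes the filament nestin, was equal (0.30 in MEF and 0.41 in spheres). Fabp7, a lipid carrier of radial glia, was at -0.67 and -5.34, 25.5-fold lower. Prom1 (CD133), a surface marker used to sort such cells, was at -0.27 in MEF and not well above background in spheres, at least 102-fold lower. Cd24a, another surface marker, was at 4.37 in MEF and not well above background in spheres, at least 2534-fold lower. Slc1a3, the glutamate transporter of radial glia, was at -0.31 in MEF and not well above background in spheres, though another of its probes differed by 0.77. Zic1, a factor of the dorsal neural tube, was at 1.9 in MEF and dim in spheres, at least 457-fold lower. Several regulators lay the other way. Six3, a forebrain factor, was 4.24-fold higher (-4.65 and -2.56), and Sox9, which also acts in cartilage, 2.74-fold higher (3.44 and 4.89). Hes5, a Notch target of neural stem cells, was 2.38-fold higher (1.47 and 2.71). Pax6 was not well above background in MEF and at -2.92 in spheres, at least 15.3-fold higher, and Olig2 was at -3.96 and -3.08. Other probes of Pax6 and Sox9 lay the opposite way, by up to -1.69 and -0.18.

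Markers of differentiated neural cells gave no one-sided picture. Of 37 genes of neurons and glia, 13 were higher (35.1%) and 6 lower (16.2%), both near the share of all genes. Neurog1, which starts neuronal fate, was at -4.67 in MEF and -0.40 in spheres, 19.4-fold higher. Gap43, a growth cone protein, was at 0.36 and -5.74, 68.6-fold lower, and Tubb3, a neuronal tubulin, was 2.4-fold lower (-0.99 and -2.25). Gfap, the astrocyte filament, was equal at -0.11 and -0.21. Of the 12 neural crest regulators 4 were higher (33.3%) and 3 lower (25%), with a median of -0.32 that was 0.54 with a slide term. Pax3 was the largest of them, not well above background in MEF (-8.8) and at 0.34 in spheres, at least 146-fold higher, and above the iPS range of -8.82 to -3.38. Sox10, another crest factor, was at -3.09 and -3.67, and the endothelin receptor Ednrb was 28.2-fold lower (-1.81 and -6.63). Oct4 and Nanog, which define pluripotency, were far below their ES level on both arrays. Of 24 pluripotency genes on the array, 19 were compared, and Zfp42, Dppa3, Dppa4, Lin28a and Nr0b1 were not well above background on the higher array. Of the 19, 9 were higher in spheres (47.4% against 31.5% of all genes) and 1 lower (5.26% against 18.5%). Their median was 0.86, against 0.23 between sister lines, and the counts depended on the processing. After quantile normalization 5 were higher and 3 lower, with a median of 0.23. With the normexp background correction 4 were higher and 1 lower, with a median of 0.37. The summed level of the 24 genes, with the 75th percentile as 1, was 64.7 in MEF and 58.8 in spheres, and Klf2, Tbx3 and Klf4, which are also expressed outside pluripotent cells, were its brightest members, Klf2 being saturated on both arrays. Pou5f1 (Oct4) was at -6.66 in MEF and -5.56 in spheres, against 3.62 in ES cells. Nanog was at -3.96 and -4.68, against 5.14 in ES cells. Of the higher members, the largest differences were those of Gdf3 and Dppa2, both under their ES level. Dppa2 was at -5.35 and -1.5, 14.4-fold higher, against 1.31 in ES cells. Gdf3, a ligand of the TGF-beta family, was not well above background in MEF and at -2.43 in spheres, at least 21.4-fold higher, against 1.11 in ES cells. The Oct4 and Nanog values go against the description of the sphere sample as iPS.

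**Figure D3:**
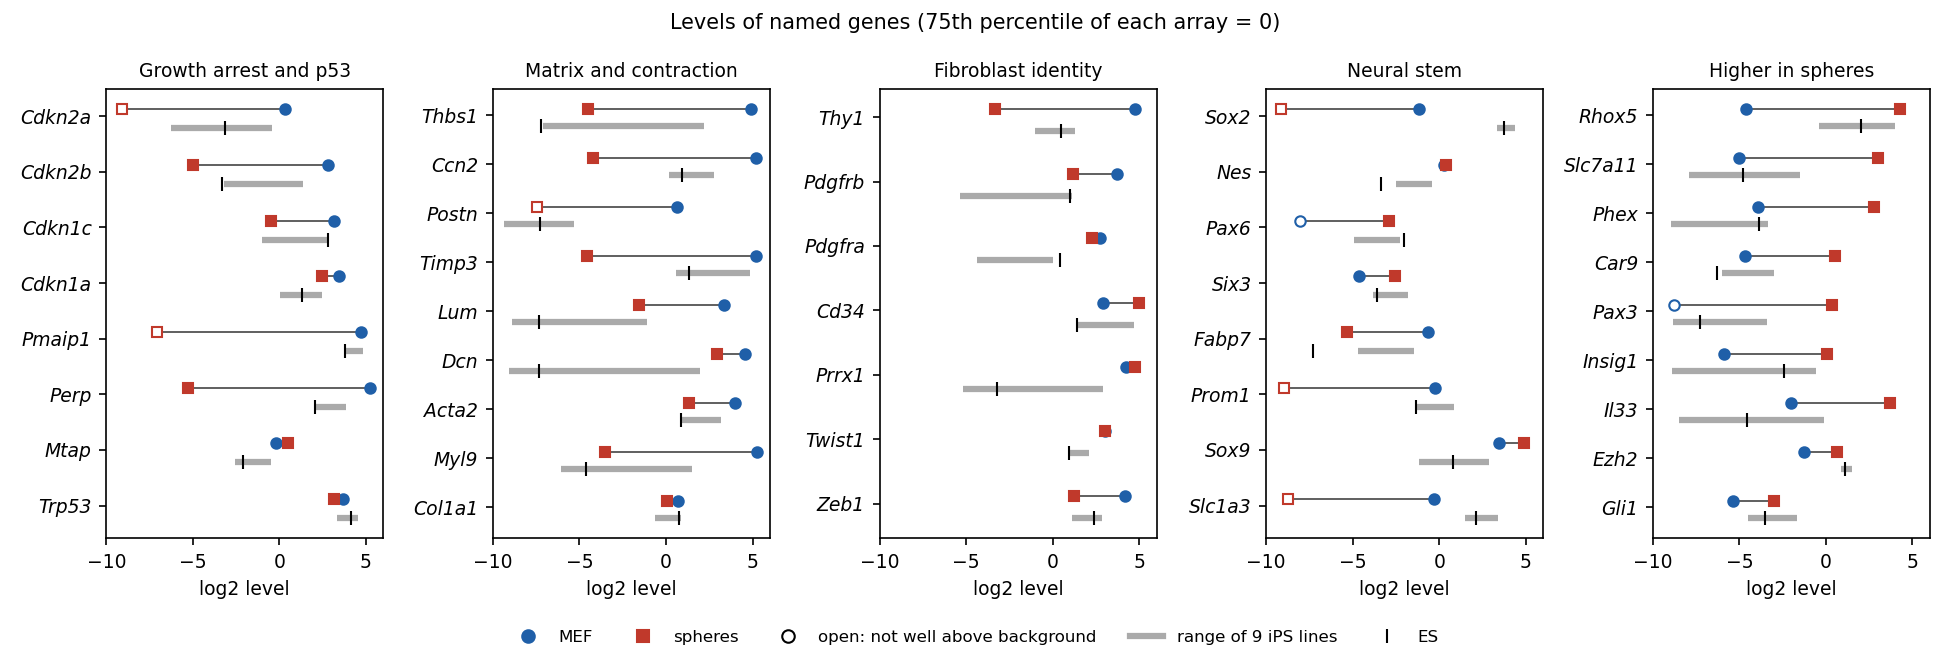
Log2 level (horizontal axis, 75th percentile of each array at 0) of named genes in 5 panels. Blue circles are MEF and red squares spheres, open where not well above background, grey bars the range of the 9 iPS lines and black ticks ES cells. Cdkn2a, Pmaip1, Postn, Sox2, Prom1 and Slc1a3 are open squares at the left edge, Twist1, Prrx1, Nes and Trp53 lie at nearly the same level in both samples, and Rhox5, Slc7a11 and Phex lie to the right of MEF and of the iPS range in spheres.

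Fibroblast transcription factors and surface markers differed by member. Of 23 mesenchymal transcription factors, 7 were lower (30.4% against 18.5% of all genes), 4 higher (17.4% against 31.5%) and 12 within 2-fold, about the share of all genes, with a median of -0.023. Twist1, a regulator of the mesenchymal state, was at 3.02 in MEF and 3.0 in spheres. Prrx1, a limb mesenchyme factor, was at 4.26 and 4.76, above the highest iPS line (2.91). Zeb2 was at 4.74 and 4.72, while its relative Zeb1 was 7.57-fold lower (4.15 and 1.23). Prrx2 was 20.3-fold lower (2.16 and -2.19) and Snai2, which represses epithelial genes, 4.5-fold lower (3.39 and 1.22). Ebf3 was 5.46-fold higher (1.21 and 3.65). On the surface, Thy1, a glycoprotein by which fibroblasts are sorted, was at 4.77 in MEF and -3.33 in spheres, 275-fold lower, and the sphere value lay below the iPS range of -1.02 to 1.28. Pdgfrb, a growth factor receptor of mesenchyme, was at 3.71 and 1.16, 5.86-fold lower, and its paralogue Pdgfra was at 2.71 and 2.29, within 2-fold. Nt5e (CD73) was 35.1-fold lower (-1.25 and -6.38). Cd34, found on stromal progenitors, was at 2.93 in MEF and saturated at 4.99 in spheres, at least 4.18-fold higher. Over all 37 genes of the list the summed level, with the 75th percentile as 1, was 318 in MEF and 258 in spheres.

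More genes of the extracellular matrix were lower than higher. Of 56 matrix glycoprotein and proteoglycan genes, 24 were at least 2-fold lower in spheres (42.9%) and 8 higher (14.3%), with a median of -0.58. Sister iPS lines differed by 0.76 in that median. The matricellular proteins, which tune how cells hold the matrix, held the largest differences. Thbs1, thrombospondin 1, was at 4.92 in MEF and -4.51 in spheres, 685-fold lower. Ccn2, connective tissue growth factor, was saturated in MEF (5.17) and at -4.2 in spheres, at least 663-fold lower and below the iPS range of 0.19 to 2.79. Ccn5 was 343-fold lower (2.51 and -5.92). Postn, periostin, was at 0.64 in MEF and not well above background in spheres, at least 191-fold lower. Not every member went this way: Spp1 (osteopontin) was at 3.75 and 3.52, Thbs2 at 1.95 and 2.19, and Matn2 was 14.5-fold higher (-0.48 and 3.38). Among the small leucine-rich proteoglycans, which space collagen fibrils, Lum was 29.7-fold lower (3.35 and -1.54), Bgn 11.2-fold lower (0.81 and -2.67) and Dcn 3.15-fold lower (4.59 and 2.94). In the elastic fibre, Fbln5 was 119-fold lower (3.01 and -3.88), Fbln1 32.9-fold lower (3.81 and -1.23) and Fbn1 8.47-fold lower (2.34 and -0.75). Fibronectin, Fn1, was at 0.48 and -1.11, 3.02-fold lower. Has2, which makes hyaluronan, was 149-fold lower (3.19 and -4.03), while Has1 was not well above background in MEF and at -2.93 in spheres, at least 15.2-fold higher. The hyaluronan receptor Cd44 was saturated on both arrays.

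The main fibrillar collagens differed little. Col1a1 was at 0.68 in MEF and 0.053 in spheres and Col3a1 at -0.33 and -0.49, and Col1a2 was saturated in MEF (5.16) and at 4.84 in spheres. The minor fibrillar chains differed more, with Col11a1 31.4-fold lower (1.3 and -3.67) and Col5a2 22.7-fold lower (2.25 and -2.25). In the basement membrane, Col4a1 was 8.33-fold lower (1.61 and -1.45), and in microfibrils Col6a1 was 10.9-fold lower (0.79 and -2.65) and Col6a2 15.2-fold lower (1.35 and -2.58). Over the 37 genes for collagens and their processing, 15 were lower (40.5% against 18.5% of all genes) and 5 higher (13.5% against 31.5%). The median was -0.50, inside the 0.99 by which sister lines differed. Lox, which cross-links collagen, was 3.95-fold lower (3.93 and 1.95), and Plod2, which hydroxylates its lysines, 6.08-fold higher (-1.23 and 1.37).

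Genes for matrix turnover had a larger share of lower members than any other list but the 6 X and Y genes. Of 30 matrix proteases and inhibitors, 19 were at least 2-fold lower (63.3% against 18.5% of all genes) and 5 higher, with a median of -2.38 against 1.04 between sister lines. Mmp13, a collagenase, was at 3.65 in MEF and -4.58 in spheres, 301-fold lower. Mmp3, stromelysin, was at 4.98 and -1.2, 72.4-fold lower. The gelatinases differed little, with Mmp2 at 1.04 and 0.82 and Mmp9 at 0.87 and 0.42, and so did the membrane-bound Mmp14 (4.84 and 5.03). Inhibitors and genes of the plasminogen system were mostly lower as well, 8 of 11, but 3 were higher. Their median was -2.58, against 1.95 between sister lines. Timp3 was saturated in MEF (5.2) and at -4.56 in spheres, at least 866-fold lower, and Timp1 was 7.47-fold lower (4.33 and 1.43). Fap, a protease of activated fibroblasts, was at -0.39 in MEF and not well above background in spheres, at least 93.7-fold lower.

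Most contractile genes were lower, and genes of the YAP pathway differed in both directions. YAP and its relative TAZ bind TEAD transcription factors and are on in spread cells under tension, and many contractile genes answer to the factors SRF and myocardin. Of 24 smooth muscle contractile genes, 15 were lower (62.5% against 18.5% of all genes) and 2 higher, with a median of -1.51. Sister lines differed by 0.21 in that median. Of 12 YAP pathway genes 4 were lower (33.3%) and 3 higher (25%), and their median of -0.35 lay inside the 0.67 between sister lines. The median of both together was -1.23, and -1.51 with a slide term. Myl9, the regulatory light chain of myosin, was saturated in MEF (5.24) and at -3.52 in spheres, at least 432-fold lower. Acta2, smooth muscle actin, was at 3.99 and 1.32, 6.36-fold lower, and Cnn1, calponin, was 15-fold lower (2.34 and -1.57). Tagln, saturated in MEF, was at 5.07 and 4.64, and Myh11 was equal at -1.02 and -1.18. Yap1 itself was at -0.64 and -0.32, Tead1 at 4.45 and 3.92, and Wwtr1 (the gene of TAZ) was 2.11-fold higher (1.99 and 3.07). The targets Ankrd1 (2.87 in MEF and -2.08 in spheres, 30.8-fold lower), Amotl2 (1.18 and -4.23, 42.6-fold lower) and Ccn1 (3.81 and -0.22, 16.4-fold lower) were lower, Ccn1 being counted with the matrix genes. Lats2, the kinase that restrains YAP and is also its target, was 7.01-fold lower (3.98 and 1.17). Wwc1, a scaffold of the same pathway, lay the other way, 6.46-fold higher (-1.75 and 0.94), as did the caveolin gene Cav2, 3.87-fold higher (-1.34 and 0.61). The start regions of Ccn1 and Ankrd1 are shown with the core letters of the TEAD motif in capitals, GGAATG on 1 strand and CATTCC on the other, in build GRCm38.p6 on the gene's strand (minus).

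Ccn1, chr3:145649936-145650235: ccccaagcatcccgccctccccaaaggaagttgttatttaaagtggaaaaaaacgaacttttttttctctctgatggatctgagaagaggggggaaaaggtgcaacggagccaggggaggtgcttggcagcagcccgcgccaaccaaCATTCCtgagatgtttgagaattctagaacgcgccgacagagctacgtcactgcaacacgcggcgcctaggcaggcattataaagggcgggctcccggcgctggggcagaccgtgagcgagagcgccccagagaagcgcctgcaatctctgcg

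Ankrd1, chr19:36119795-36120094: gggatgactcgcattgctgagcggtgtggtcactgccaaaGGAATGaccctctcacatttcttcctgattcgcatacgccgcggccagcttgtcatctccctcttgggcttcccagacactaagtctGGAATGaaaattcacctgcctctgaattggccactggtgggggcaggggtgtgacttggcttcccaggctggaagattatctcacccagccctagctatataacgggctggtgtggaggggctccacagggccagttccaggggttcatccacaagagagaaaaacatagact

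These letters occur once in the Ccn1 region and at 2 places in that of Ankrd1. The lower genes of this list together with Ccn1, Ccn2 and Thbs1 came to 22, of which 18 have a start region in the RefSeq table, and 11 of the 18 held either form (61.1%). Of the whole list, whichever way its genes lay, 16 of 30 did (53.3%). The share was 12.7% over all 13913 compared genes with such a region and 14.6% over the 27025 regions of the table. A match of 6 letters is a description of the sequence and not a bound site. The list was drawn up by known role, with 24 smooth muscle contractile genes and 12 YAP pathway genes. Its share is thus not one of known TEAD targets alone. Ccn1, Ccn2 and Thbs1 were added from the matrix genes, and each was lower.

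**Figure D4:**
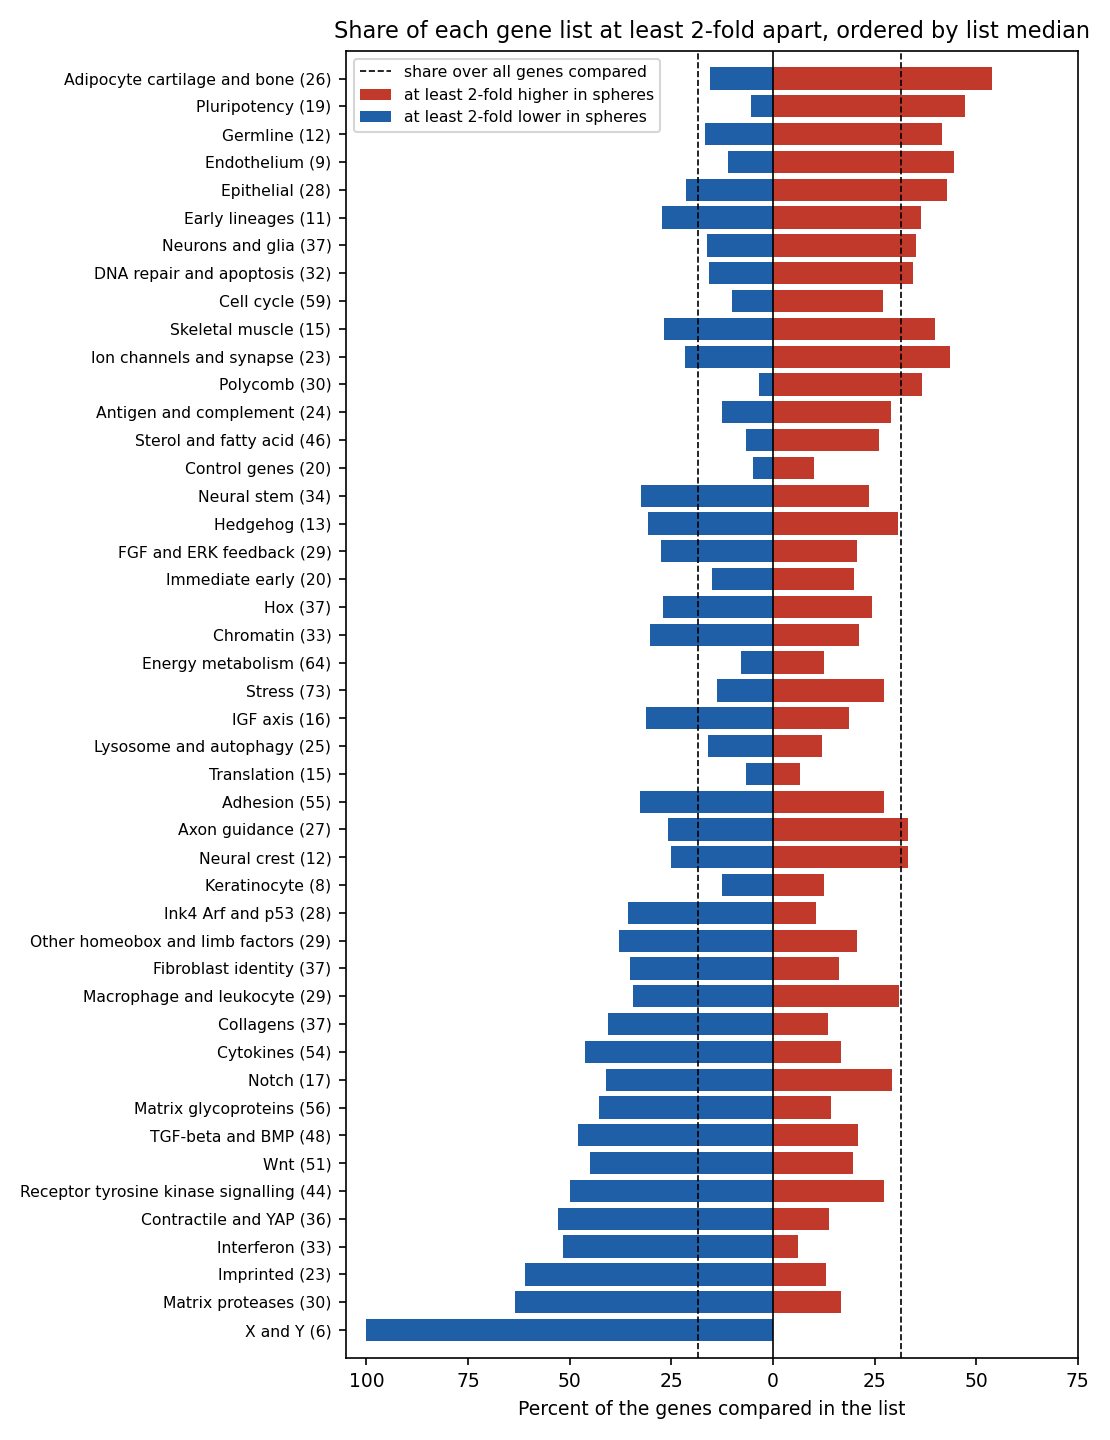
Share of each of 46 gene lists that was at least 2-fold lower (blue, to the left) or higher (red, to the right) in spheres, in percent of the genes compared, whose number follows the list's name. Lists are ordered by their median difference, and dashed lines give the share over all genes, 18.5% lower and 31.5% higher. Matrix proteases, imprinted, interferon and the joint contractile and YAP list lie at the bottom with over 50% of their members lower, and the small list of X and Y genes has all 6 lower.

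In the growth factor pathways more members were lower than higher. In the TGF-beta and BMP pathway 23 of 48 genes were lower (47.9% against 18.5% of all genes) and 10 higher (20.8% against 31.5%). The median was -0.65, against 0.19 between sister lines, and -1.16 with a slide term. Tgfb2, a ligand, was at 3.43 in MEF and not well above background in spheres, at least 1319.5-fold lower, and Tgfb1 was 43.8-fold lower (2.17 and -3.29). Inhba, which makes activin A, was 179.6-fold lower (2.93 and -4.56). Bmp4 was 16.6-fold lower (0.93 and -3.12), whereas Bmp6 was 14.2-fold higher (-6.47 and -2.64) and Bmp7 5.23-fold higher (-3.86 and -1.47). The BMP antagonists did not go one way. Grem1, gremlin, was 667-fold lower (3.69 and -5.69), Nog, noggin, 10.8-fold higher (-5.07 and -1.63) and Chrd, chordin, 11.2-fold higher (-0.23 and 3.25). Of 20 receptors and antagonists 9 were lower (45% against 18.5% of all genes) and 4 higher. The receptors Tgfbr1 (1.55 and 1.94) and Bmpr1a (2.54 and 2.65) were nearly equal. Of 8 targets 5 were lower and none higher, with Id1 at 2.59 and -0.96 (11.7-fold lower), Id2 at 0.52 and -2.35 (7.29-fold lower) and Smad7 at -0.90 and -4.24 (10.1-fold lower).

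In the Wnt pathway 23 of 51 genes were lower (45.1% against 18.5% of all genes) and 10 higher (19.6% against 31.5%). The median was -0.66, against 0.16 between sister lines, and -0.97 with a slide term. Wnt5a, the main ligand of fibroblasts, was at -0.28 in MEF and -5.46 in spheres, 36.1-fold lower. Over the 11 ligands compared, 3 were lower and 3 higher. R-spondins, which strengthen Wnt signals, were lower, with Rspo1 at 0.92 and -4.83 (53.9-fold lower) and Rspo2 at -0.37 and -5.03 (25.2-fold lower). Of 16 antagonists and targets 10 were lower, among them the secreted Sfrp1 (98.3-fold lower, 1.56 and -5.06) and Dkk3 (at least 356-fold lower, from 1.54 to a dim signal). Of 24 receptors and transducers 10 were lower (41.7% against 18.5% of all genes) and 4 higher, with a median of -0.62 against 0.13 between sister lines. Fzd1 was 109-fold lower (1.57 and -5.21), Fzd2 27.1-fold lower (1.72 and -3.04) and Fzd8 3.26-fold higher (-2.13 and -0.43). Ctnnb1, beta-catenin, was at 4.37 and 4.6, and the target Axin2 was 2.48-fold lower (-1.39 and -2.7). In the Notch pathway the median was -0.57, and -0.16 with a slide term. Of 10 ligands and receptors 5 were higher and 2 lower. Of the 7 genes listed as Notch targets, which include Id4 but not Hes1 and Hes5, none was higher and 5 were lower. The count depends on that choice of members. Hey1 was 7.66-fold lower (-1.18 and -4.12), and Id4, at 2.55 in MEF and not well above background in spheres, at least 716-fold lower. Hes1 and Hes5, counted among the neural stem markers, lay the other way (-6.53 and -5.72 for Hes1).

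The ligand or agonists of the hedgehog pathway were used to make other lines of the series. Of its 13 genes compared 4 were higher (30.8% against 31.5% of all genes) and 4 lower (30.8% against 18.5%). Shh, the ligand, was not well above background on either array. Ptch1, receptor and target, was at -3.64 in MEF and -3.44 in spheres, while Gli1, the other standard target, was 5.15-fold higher (-5.37 and -3.01). The sphere level of Gli1 lay inside the iPS range of -4.52 to -1.66. Gli2 was at -4.0 and -3.9 and Gli3 at 3.59 and 3.07, both within 2-fold.

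Of 44 genes of receptor tyrosine kinases and their ligands, 22 were lower (50% against 18.5% of all genes) and 12 higher (27.3% against 31.5%). Members of 1 family often differed in direction. Of the 21 receptors 10 were lower and 7 higher. Flt4, the receptor of Vegfc, was at 3.4 in MEF and dim in spheres, at least 1291-fold lower, and Vegfc itself was 108-fold lower (3.19 and -3.57). Egfr, read by its brightest probe, was at 4.4 in MEF and dim in spheres, at least 2590.5-fold lower, while another of its probes differed by -0.21 only. Erbb2, its partner, was 9.71-fold higher (-3.19 and 0.092). Mertk, which takes up dead cells, was 23.7-fold higher (-3.69 and 0.88), and its relative Axl 2.63-fold lower (4.54 and 3.15). Kitl, the ligand of Kit, was 23.2-fold higher (-3.46 and 1.07). In the FGF family Fgf2, a mitogen used to grow neural spheres, was 3.46-fold higher (-5.32 and -3.53), Fgf7 7.4-fold lower (2.95 and 0.059) and Fgfr2 7.37-fold lower (2.06 and -0.82). Of 13 genes of ERK feedback 3 were higher and 2 lower. The ERK-driven genes Etv4 (3.75-fold higher, 0.20 and 2.1) and Spry1 (4.89-fold higher, -2.91 and -0.62) were higher, and Dusp6 was saturated on both arrays.

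Igf2 and several of its binding proteins were lower, and so were most imprinted genes compared. Igf2, the fetal growth factor, was at 3.88 in MEF and not well above background in spheres (-8.19), at least 1811-fold lower. H19, the noncoding RNA next to it that is expressed from the other parental copy, was at 3.74 and -2.93, 102-fold lower. Among the binding proteins Igfbp5 was at least 2265-fold lower (4.21 in MEF), Igfbp7 at least 772-fold lower (2.65 in MEF) and Igfbp6 5.06-fold higher (1.65 and 3.99). The receptor Igf1r was at 1.25 and 2.05. Of 23 further imprinted genes 14 were lower (60.9%) and 3 higher, with a median of -1.86, against 0.12 between sister lines. All 5 genes of the Dlk1-Dio3 cluster were lower, but sister lines differed by 2.79 in that median. Peg10 was at 0.81 in MEF and not well above background in spheres, at least 213-fold lower, and Peg12 was 270.1-fold lower (4.44 and -3.63). Peg3 and Ndn were level (-3.42 and -3.39 for Peg3, -0.74 and -0.81 for Ndn).

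Hox genes, which record position along the body, differed in both directions. Of 37 Hox genes 9 were higher, 10 lower and 18 within 2-fold, with a median of 0.096. With a slide term 9 were higher and 15 lower and the median was -0.57. Trunk genes such as Hoxc6 (-1.07 in MEF and -0.97 in spheres), Hoxa7 (3.43 and 3.82) and Hoxc10 (2.95 and 3.46) lay within 2-fold. The posterior genes Hoxc13 (2.56 and -5.73, 314-fold lower) and Hoxd13 (2.36 and -3.64, 64-fold lower) were bright in MEF and low in spheres. Of 29 other homeobox and T-box genes, 11 were lower and 6 higher (median -0.42, and -1.18 with a slide term). Pitx1, which marks hindlimb, was at 0.45 in MEF and not well above background in spheres, at least 168-fold lower, Six2 was 197-fold lower (0.94 and -6.68) and Irx1 89.6-fold lower (2.56 and -3.93).

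More interferon-stimulated genes and cytokines were lower than higher. Of 33 interferon-stimulated genes 17 were lower (51.5%) and 2 higher, and the median of -1.31 was about as large as the 1.22 by which sister lines differed. Ifit3 was 12.5-fold lower (2.02 and -1.63) and Ifih1, a sensor of viral RNA, 12.5-fold lower (1.59 and -2.06). Others were level, such as Rsad2 (2.78 and 2.65) and Cxcl10 (1.4 and 1.38). Of 54 cytokine genes 25 were lower (46.3% against 18.5% of all genes) and 9 higher (16.7% against 31.5%). Their median was -0.53, against 1.48 between sister lines. Il6 was at 0.71 in MEF and not well above background in spheres, at least 200.4-fold lower, and Cxcl12, the stromal chemokine, was 74-fold lower (2.71 and -3.5). Il33, an alarmin, was 53.2-fold higher (-2.01 and 3.73), and Il34, a macrophage growth factor, 40.9-fold higher (-2.24 and 3.11). Of 11 genes of MHC class I and antigen processing none was lower. B2m was saturated on both arrays, and H2-D1 was at 3.76 and 3.63. Of 18 macrophage markers 8 were lower (44.4% against 18.5% of all genes) and 3 higher (16.7% against 31.5%). Their summed level, the 75th percentile as 1, differed little, at 13.6 in MEF and 12.2 in spheres. On the MEF array 18 of them were above background and on the sphere array 15. Adgre1 (F4/80) was at 0.59 and -4.18, 27.2-fold lower, and Tyrobp at 0.93 and -5.75, 103-fold lower, while Csf1r was at -4.95 and -4.12, Spi1 was dim in spheres and C1qc dim on both arrays. Their part in the lower interferon and cytokine signals was not tested, and fewer such cells cannot be told apart from less RNA per cell.

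A small set of bone genes was higher in spheres, and cartilage genes were split. Of 9 bone genes compared 5 were higher (55.6% against 31.5% of all genes) and 0 lower. On the MEF array 5 of 10 bone genes were above background and on the sphere array 9. The higher genes other than Phex were dim in MEF and were compared only through their sphere signal. The median of 3.76, against 0.55 between sister lines, thus rests on the floor of the MEF array. Phex, an endopeptidase of osteoblasts, was at -3.91 in MEF and 2.79 in spheres, 104-fold higher, and above the iPS range of -8.94 to -3.36. Alpl (alkaline phosphatase), Bglap (osteocalcin), Dmp1 and Ibsp (bone sialoprotein) were not well above background in MEF and at -2.9, -2.23, -2.19 and -3.09 in spheres. These give limits of at least 15.4-fold higher, at least 24.6-fold higher, at least 25.2-fold higher and at least 13.5-fold higher. The osteoblast regulators Runx2 (2.56 and 3.51) and Sp7 (-1.79 and -1.59) differed by less than 2-fold. Of 6 cartilage genes 3 were higher and 3 lower, with a median of -0.92. Chad, chondroadherin, was 8.64-fold lower (-2.38 and -5.49) and Snorc, a cartilage proteoglycan, 6.4-fold higher (-3.22 and -0.55). Of the adipocyte genes more were higher, 6 of 11 (54.5%), led by Cidec (at least 11.6-fold higher, -3.32 in spheres), with Pparg at -3.01 and -3.8.

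Epithelial genes were higher at 12 of 28 (42.9% against 31.5%) and lower at 6. Pkp3, a desmosome protein, was dim in MEF and at 0.87 in spheres, at least 210.3-fold higher, Cldn6, an embryonic tight junction protein, was 24.7-fold higher (-4.1 and 0.52) and the keratin gene Krt8 7.92-fold higher (-4.09 and -1.11). Cdh1 (E-cadherin), which defines epithelia, was dim in MEF and only at -6.27 in spheres, close to that array's floor, and Epcam was at -4.4 and -3.74. Krt19 was 15.1-fold lower (-0.58 and -4.5). Single genes of other tissues had some of the largest differences of all. Rhox5, an X-linked homeobox gene of testis and placenta, was at -4.62 in MEF and 4.27 in spheres, 473-fold higher, the largest difference in this direction measured on both arrays among genes with a standard symbol. Its iPS range was -0.39 to 3.97. Afp, the fetal liver protein, was not well above background in MEF and at 1.29 in spheres, at least 282-fold higher, and Hba-a1, an alpha globin, was 135-fold higher (-3.76 and 3.32). Ttr and Foxa2, which accompany Afp in endoderm, were dim on both arrays, and of the other red cell genes Gata1 was dim in MEF and at -4.87 in spheres.

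Of the 9 DNA methylation genes compared, 4 were higher and 2 lower. Dnmt3b, which sets new methyl marks in the early embryo, was not well above background in MEF and at -3.05 in spheres, at least 13.9-fold higher, but below its ES level of -1.05. Tet2, which oxidises the marks, was at -0.44 in MEF and 2.12 in spheres, 5.88-fold higher. Dnmt1, which copies them after replication, was 2.78-fold higher (-1.44 and 0.033). Among 24 deacetylases, remodellers and chromatin proteins 8 were lower and 3 higher. Hdac9, a deacetylase, was at -1.82 in MEF and dim in spheres, at least 34.7-fold lower, and Chd7, a remodeller, was 8.02-fold higher (-0.29 and 2.71).

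Markers of other cell types that such cultures can hold were higher and lower by member. Of 9 endothelial genes 4 were higher (44.4% against 31.5% of all genes) and 1 lower (11.1% against 18.5%). The median was 0.76, and 0.033 with a slide term. The higher genes were led by the tight junction gene Cldn5 (-2.21 and -0.069, 4.41-fold higher). Emcn, which defines endothelium more closely, was level (-5.27 and -5.4). Of 15 skeletal muscle genes 6 were higher and 4 lower. The acetylcholine receptor subunit Chrna1 was 23.7-fold higher (-5.34 and -0.77), the fast troponin gene Tnnt3 7.0-fold lower (-0.045 and -2.85), and Myog, which starts muscle fusion, was at -3.14 and -2.6. Of 12 germline and early embryo genes 5 were higher and 2 lower. Besides Rhox5, the meiosis gene Sycp1 was 15.5-fold higher (-6.62 and -2.66) and Zscan4c 13.4-fold higher (-4.79 and -1.05), and the germ cell helicase Ddx4 was at -3.84 in MEF and dim in spheres, at least 8.54-fold lower. Of 23 genes of ion channels and synaptic receptors 10 were higher and 5 lower (median 0.52, and 1.05 with a slide term). The potassium channel gene Kcnn4 was 22.9-fold higher (-5.08 and -0.56), and the calcium channel gene Cacna1c 9.21-fold lower (1.27 and -1.94). Of genes named for mast cell proteases, Mcpt8 was at 4.05 in MEF and dim in spheres, at least 2028-fold lower. The tryptase gene Tpsab1 was dim in MEF and at 1.32 in spheres, at least 289-fold higher, and Tpsb2 was 2.67-fold higher (-1.47 and -0.056).

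Among metabolic and stress genes single members differed widely in both directions. Of 73 stress genes 20 were higher (27.4% against 31.5% of all genes) and 10 lower (13.7% against 18.5%), with a median of -0.047. Slc7a11, the cystine importer that feeds glutathione, was at -5.04 in MEF and 2.99 in spheres, 262-fold higher, and all 4 of its probes were higher (2.47 to 8.06). Other targets of the antioxidant factor NRF2 differed less, with Gclc 2.25-fold higher (1.35 and 2.52), Srxn1 2.11-fold higher (3.32 and 4.39) and Nqo1 at 4.66 and 4.42. The secreted antioxidant enzymes lay the other way. Gpx3, a glutathione peroxidase, was at 1.99 in MEF and -6.35 in spheres, 323-fold lower, and Sod3, a superoxide dismutase, was at 1.69 and -5.99, 204-fold lower. Of 14 hypoxia targets 6 were higher (42.9% against 31.5% of all genes) and 1 lower (7.14% against 18.5%). Their median of 0.66 lay inside the 0.67 between sister lines. Car9, carbonic anhydrase 9, was at -4.7 and 0.51, 37-fold higher, Ankrd37 was 13.7-fold higher (-0.013 and 3.76) and Egln3, which marks HIF for destruction, 6.61-fold higher (-0.90 and 1.83). Of 21 glycolysis genes 4 were lower, 2 higher and 15 within 2-fold or saturated on both arrays, such as Pfkl (3.82 and 3.94) and Hk2 (3.0 and 3.11), with Ldha and Pgk1 saturated. Slc2a3, a glucose transporter, was at -0.73 in MEF and not well above background in spheres, at least 73.8-fold lower, but another of its probes differed by 2.57 the opposite way. Pfkfb3, which makes the activator of phosphofructokinase, was 6.04-fold lower (3.95 and 1.35), and Pfkp, by its brightest probe, 4.83-fold higher (0.21 and 2.48), with another probe at -1.45. Slc16a3, the lactate exporter, was 10.2-fold lower (2.63 and -0.72). Of 24 cholesterol genes 5 were higher (20.8%, under the 31.5% of all genes), 1 lower and 18 within 2-fold. Insig1, the sterol sensor partner, was 60.8-fold higher (-5.87 and 0.055), Fdps, farnesyl diphosphate synthase, 25.4-fold higher (-0.74 and 3.93) and Sqle, squalene epoxidase, 6.0-fold higher (0.19 and 2.78). Mvk, mevalonate kinase, was 6.65-fold lower (-0.39 and -3.12). The respiratory chain was the most level group of all those given, with 26 of 28 genes within 2-fold and a median of -0.056. Of the genes of translation 13 of 15 were within 2-fold, and of the control genes 17 of 20. Of 22 genes of the ATF4 and unfolded protein responses 15 were within 2-fold, among them Hspa5, the main chaperone of the endoplasmic reticulum (3.38 and 3.23). Atf3, a stress factor, was at -2.49 in MEF and dim in spheres, at least 21.9-fold lower, and the small heat shock gene Hspb1 was 30.1-fold lower (2.59 and -2.32). Of 17 lysosomal genes 13 were within 2-fold. The collagen-degrading cathepsin gene Ctsk was 33.7-fold lower (1.14 and -3.93). Of 20 immediate early genes 4 were higher and 3 lower, with Fos 3.61-fold lower (-2.17 and -4.02).

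Adhesion and guidance molecules differed in both directions. Of 55 adhesion genes 15 were higher (27.3% against 31.5% of all genes) and 18 lower (32.7% against 18.5%). Lama4, a laminin chain of mesenchyme, was at 2.82 in MEF and -6.32 in spheres, 565-fold lower, while Lama5, its epithelial counterpart, was 9.75-fold higher (-1.88 and 1.4). Icam1, a ligand for leukocytes, was at 1.07 in MEF and dim in spheres, at least 258-fold lower. Itga11, a collagen receptor of fibroblasts, was at least 33-fold lower (-1.89 in MEF) and Itgb7 17.9-fold higher (0.39 and 4.55). Of 27 guidance genes 9 were higher and 7 lower, and the higher ones included semaphorins, which steer axons and vessels, Sema5a at -2.15 and 2.54 (25.8-fold higher), Sema7a at -5.5 and -1.53 (15.7-fold higher) and Sema3b at -1.83 and 1.93 (13.6-fold higher). The netrin receptor Unc5c was 17.6-fold lower (-0.42 and -4.56).

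Over all genes and outside the lists, the 15 largest differences measured on both arrays in the lower direction held Rtl8b, from 3.55 in MEF to -6.92 in spheres (1412-fold lower), and Gpr176, a G protein-coupled receptor, from 3.07 to -6.86 (978-fold lower). Lancl3 (854-fold lower, 2.91 and -6.83), Runx1t1, a corepressor (761-fold lower, 3.28 and -6.29), and Rbms3, an RNA-binding protein (597-fold lower, 3.13 and -6.1), were among them. Nsd1, a histone methyltransferase, was too, but another of its probes was higher by 2.93. Prnd, the prion paralogue doppel, was at 4.34 in MEF and dim in spheres, at least 2485-fold lower. The 15 largest differences in the higher direction held, besides Rhox5, the secreted phospholipase Pla2g5, from -4.36 to 4.37 (424-fold higher), Csta2, a cysteine protease inhibitor, from -5.84 to 1.9 (214-fold higher), and the globin Cygb, from -3.89 to 2.85 (107-fold higher). Padi2, which turns arginine into citrulline, was dim in MEF and at 2.42 in spheres, at least 616-fold higher, and Fermt1, an activator of integrins in epithelia, was at 1.76, at least 390-fold higher. Of the 3284 genes at least 2-fold apart with several probes, 2063 (62.8%) had all probes on the side of the call.

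Genes of the sex chromosomes differed between the samples. The Y-linked genes Ddx3y, Eif2s3y, Kdm5d and Uty were above background in MEF, at 2.36, 0.84, 1.37 and 0.094, and none was well above background in spheres. Ddx3y was at least 631-fold lower, Eif2s3y at least 219-fold lower, Kdm5d at least 317-fold lower and Uty at least 131-fold lower. Xist, the RNA that coats the inactive X chromosome of females, was lower in spheres on all 4 of its probes. The brightest over all arrays read -0.095 in MEF and -3.55 in spheres, 10.9-fold lower. Over the 4 probes the differences, as measured and with no limit for dim signals, ran from -8.33 to -3.45 log2 units. The probes did not behave alike elsewhere. The brightest read 2.82 in ES cells, above MEF, and the others -2.28, -7.15 and -5.74, each below MEF. Tsix, the antisense RNA of Xist, was 184-fold lower (1.23 and -6.29), and whether the probes tell these overlapping genes apart was not tested. The MEF array thus held RNA of these 4 Y-linked genes and of Xist together, and the sphere array held neither at those levels. Other Y-linked genes lay the other way at low levels. Zfy1, a zinc finger gene, was at -5.1 in MEF and -4.06 in spheres, 2.06-fold higher, but its difference was -0.80 with a slide term. Sry, which starts testis development, and Usp9y were not well above background in MEF and at -5.42 and -5.96 in spheres, at least 2.7-fold higher and at least 1.85-fold higher. Of the 4 Y genes compared whose probe is placed on Y in mm7, 50% were at least 2-fold higher and 25% lower, with a median of 0.96. Of 836 genes with a probe on the X chromosome in mm7 28.0% were lower and 25.5% higher in spheres, whereas on the autosomes between 13.1% (chromosome 15) and 22.2% (chromosome 18) were lower and between 27.5% and 38.0% higher. The median difference was -0.0069 on X and between 0.14 and 0.58 on the autosomes.

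**Figure D5:**
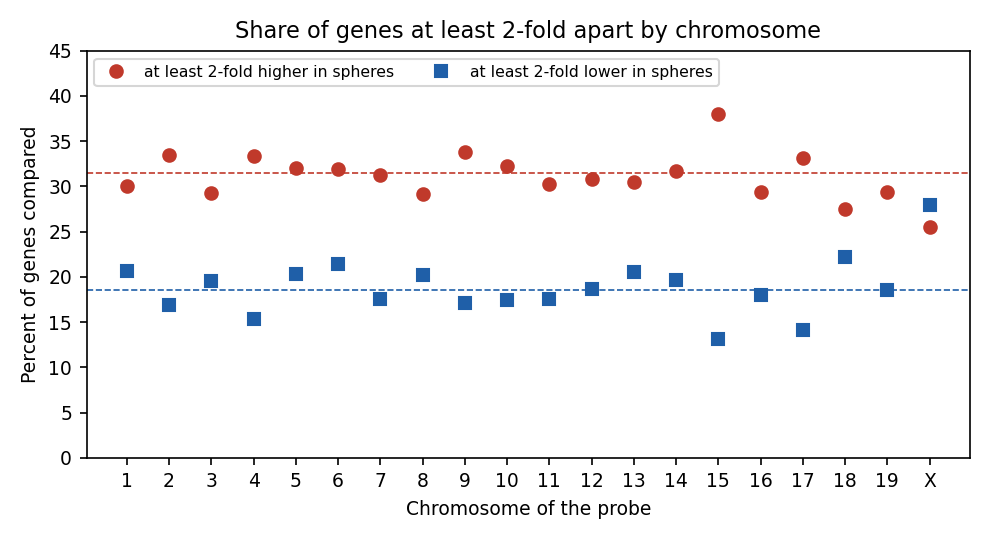
Percent of the genes compared (vertical axis) that were at least 2-fold higher (red circles) or lower (blue squares) in spheres, by the chromosome of the probe in mm7 (horizontal axis). Dashed lines give the shares over all genes, 31.5% and 18.5%. X alone has more genes lower (28.0%) than higher (25.5%), and chromosome 15 has the highest share of higher genes, 38.0%.

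The start regions of the genes that were higher held fewer CpG dinucleotides than those of the other genes. In the window of 300 bases, the median was 11 CpG for the 3936 genes at least 2-fold higher, 18 for the 2734 at least 2-fold lower and 19 for the 7243 within 2-fold. A ratio of observed to predicted CpG of at least 0.6 was reached by 42.6%, 60.4% and 64.8% of them. Among genes at least 16-fold higher it was reached by 28.6% of 287, and among those at least 16-fold lower by 52.3% of 488. Of the genes that were higher, 1881 were dim on the MEF array, against 944 of the lower genes on the sphere array, and the part of dim signals in this difference was not tested.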

How the data were processed

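The deposited files hold the intensity of every spot as Agilent Feature Extraction 9.5.3.1 wrote it, background-subtracted, with flags for spots well above background, saturated or outlying, per the file headers. Each of the 12 arrays had 43379 gene spots on a design annotated to mm7, and 1 array a sample limits the precision. Spots flagged as outliers were left out and spots of a probe averaged. The log2 of the processed signal minus each array's 75th percentile (signals of 1876.72 in MEF and 1877.37 in spheres) was then computed from the deposited intensity, a gene being read from the probe with the highest mean over 12 arrays. The pair was compared by size only, with the limits for dim and saturated signals given in the text. Differences of further probes of a gene, and the count of genes whose probes lay on 1 side, are as measured and carry no such limit. Over all 12 arrays limma 3.58.1 in R 4.3.3 gave, as an alternative, a fit of 4 classes with 8 residual degrees of freedom and Benjamini-Hochberg adjustment. It assumes that MEF and spheres vary as iPS lines do, and its interval covers only the spread between these samples. Tables were made with Python 3.11.15, and the scripts were tested on simulated data. The gene lists, 46 with 1487 genes, of which 1403 were compared, and the members were chosen with earlier results of these data known. Named genes are anchors of the lists, list members with the largest differences and other list members whichever way they lay. Others are drawn from the 15 largest differences each way measured on both arrays and the 10 largest limits each way over all genes. Not all of these are named. Alternatives changed the scaling, background correction, treatment of dim and saturated signals, probe choice, slide, threshold and call rule. Start regions come from RefSeq, build GRCm38.p6, matched by symbol for 13913 of the compared genes. Some results are not reported here. The study's own normalization is not given in the sources used here.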

Additional observations from a re-analysis of the deposited data

How the results depend on the processing

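Over the alternatives at the 2-fold threshold, the count of higher genes stayed between 5040 and 8374 and that of lower genes between 3384 and 5074. At a 3-fold threshold 4483 genes were higher, and the limma fit with the pooled spread called 500 higher and 485 lower, or 4725 of either direction at an unadjusted p under 0.05. The share of higher genes among those apart was 63.0%, 54.2% after quantile normalization and 54.7% when centred on the control genes. Of 460 list medians under alternatives, 51 shifted by more than sister lines differed, and 26, of 12 lists whose own median was at most 0.76 in size, had the opposite sign. Among them were neural stem, Hox, hedgehog, neural crest, FGF and endothelium. The median of the Polycomb list was 0.99 with the mean of all probes. That of the Ink4, Arf and p53 list was -0.27 after quantile normalization, -0.63 when centred on control genes, -0.26 with both arrays above background and -0.78 with a slide term. That of the imprinted list was -2.08 when centred on control genes, -1.68 after normexp and -1.20 with both arrays above background. That of the contractile and YAP list was -1.45 when centred on control genes and -1.51 with a slide term, and that of the X and Y list -5.52 after normexp and -5.49 with both arrays above background. Of the 1764 values of named genes under alternatives, 150 shifted by more than the spread of the lines and 2 reversed, both with a slide term, the differences of Pcgf2 (-0.061) and Zfy1 (-0.80). Of 83 named genes at least 2-fold apart with several probes, 7 had a probe in the opposite direction, given beside each. The causes were not tested. No paired analysis was possible because each side of the comparison is 1 array.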
